A study of Mus musculus with 242 samples.

Results

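This account follows 10 genes of the exocrine pancreas through 242 mouse livers: the lipase family genes Pnlip, Pnliprp1 and Pnliprp2, the elastases Cela1 and Cela2a, the carboxypeptidases Cpa1 and Cpb1, the chymotrypsin gene Ctrb1, the colipase gene Clps and the trypsin inhibitor gene Spink1. They were chosen by their known place in acinar cells and by what these same arrays show, since Pnliprp1 and Spink1 were also high in some treated livers where the rest were not; their differences between treated and control livers are therefore given as descriptions, without p-values. Pnlip has no probe set assigned to it alone in the annotation used here and is only named. The other 9 members were measured, among 18193 genes with at least 1 probe set of their own.

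The livers came from female B6C3F1 mice that were 5 weeks old when exposure began and were given 1 of 26 chemicals or a vehicle for 13 weeks; 3 lobes were pooled within each mouse, and each array held 1 mouse. There were 46 treated groups (183 arrays) and 14 vehicle control sets (59 arrays), of 3 to 5 mice each. The arrays are grouped here into 4 runs, named A to D. Run A holds 2 run codes, and both occur among the malathion livers, the 4-nitroanthranilic acid livers and their control set. The feed groups described below received 14800 ppm malathion, 10000 ppm 4-nitroanthranilic acid (both run A, control set FCO2), 2000 ppm 1,5-naphthalenediamine (run C, control set RodentChow) or 20000 ppm 1-amino-2,4-dibromoanthraquinone (run B, control set FCO1). The corn oil gavage groups received 93 mg/kg iodoform (run B, control set CCO4), 240 mg/kg 2,3-benzofuran (run C, control set CornOil), 200 mg/kg coumarin, 100 mg/kg benzene or 62 mg/kg 1,2-dibromoethane (run A, control set CCO2), or 100 to 600 mg/kg 1,4-dichlorobenzene (run D, control set CCO5). The inhalation groups, all in run D, breathed 25 to 1200 ppm propylene glycol mono-t-butyl ether (control set ACO3), 100 to 4000 ppm methylene chloride (ACO4) or 0.5 to 30 ppm naphthalene (ACO5). Comparisons among controls also used the distilled water gavage sets CCO3 and WCO1 (run A), the air set ACO1 (run B) and the corn oil set CCO6 (run D). In the treated comparisons a member or gene was called when limma put its difference from the matched control set at 1.5-fold or more, with an adjusted p under 0.05 (Benjamini-Hochberg, over the 18193 genes).

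Acinar cells of the pancreas make digestive enzymes, package them in zymogen granules and secrete them into the gut. Pancreatic lipase and its relatives split dietary fat with the help of colipase, elastases and chymotrypsins cut proteins, carboxypeptidases trim the ends of peptides, and Spink1 blocks trypsin that becomes active too early. In the mouse the pancreas lies against the stomach, spleen and liver, so its tissue can be carried into a dissected liver sample. In bulk tissue, more cells of a type and more RNA per cell cannot be told apart.

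Sequence just before the start of transcription was read for the 8 members in the RefSeq promoter table (build GRCm38.p6), to set side by side a gene that was high alone, members that were high together and a member abundant in every liver. Pnliprp1, the gene that was high alone, has its window at chr19:58728637-58728886 on the plus strand, between those of Pnlip (chr19:58670115-58670364) and Pnliprp2 (chr19:58759473-58759722). Cpa1 (chr6:30638968-30639217, plus strand) and Cela2a (chr4:141826006-141826255, minus strand) were high together, and Cela1 (chr15:100687921-100688170, minus strand) was abundant throughout. Each line gives 250 bases, 5′ to 3′ on the gene's strand, ending at the base before the start. Capitals mark matches to 3 motifs, searched on both strands. An E-box was taken as CACCTG. The core bound by Rbpj-type proteins was taken as TGGGAA, and these are the kinds of element used by PTF1, the acinar transcription factor complex. A TATA box was taken as TATAAA.
Pnliprp1: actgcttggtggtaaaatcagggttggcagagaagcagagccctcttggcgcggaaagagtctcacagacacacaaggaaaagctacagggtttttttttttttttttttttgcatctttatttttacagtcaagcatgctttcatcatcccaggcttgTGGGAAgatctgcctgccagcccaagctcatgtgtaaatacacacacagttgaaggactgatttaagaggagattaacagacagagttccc
Cpa1: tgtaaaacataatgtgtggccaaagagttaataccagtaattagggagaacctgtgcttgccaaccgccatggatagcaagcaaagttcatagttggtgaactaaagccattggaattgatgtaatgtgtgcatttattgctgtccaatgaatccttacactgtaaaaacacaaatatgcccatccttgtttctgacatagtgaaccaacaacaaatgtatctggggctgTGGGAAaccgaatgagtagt
Cela2a: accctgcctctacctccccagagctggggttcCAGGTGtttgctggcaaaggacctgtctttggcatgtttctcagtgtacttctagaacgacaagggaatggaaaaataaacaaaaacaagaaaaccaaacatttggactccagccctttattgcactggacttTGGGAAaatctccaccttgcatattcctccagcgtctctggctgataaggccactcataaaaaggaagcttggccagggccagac
Cela1: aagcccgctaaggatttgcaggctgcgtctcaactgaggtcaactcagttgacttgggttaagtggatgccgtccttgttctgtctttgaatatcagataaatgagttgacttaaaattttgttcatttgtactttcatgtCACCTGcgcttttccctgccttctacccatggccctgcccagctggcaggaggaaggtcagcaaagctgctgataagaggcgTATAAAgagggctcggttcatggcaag

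The E-box letters were in 4 of the 8 member windows, the TGGGAA letters in 5 and the TATAAA letters in 2, and the E-box and TGGGAA occurred together in 1, that of Cela2a. Of 32851 promoters of the same length in the table, 17.2% held the E-box, 21.6% held TGGGAA, 12.4% held TATAAA and 3.91% held the E-box with TGGGAA. Pnliprp1 and Cpa1 each held TGGGAA without the E-box, and Cela1 held the E-box and a TATAAA without TGGGAA. These are matches of letters and were not tested as sites.

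The members did not share one level in liver. Cela1, an elastase, was abundant in every array: its median signal was 4505, at the 93.6th percentile of the genes measured, and its lowest was 670. Cela2a had a median signal of 92.4 and Clps of 57.0, at the 39.5th and 30.3rd percentiles. The other 6 measured members had medians between 8.41 (Cpb1) and 13.2 (Pnliprp2), between the 3.95th and 8.43rd percentiles, where a signal is close to the array's floor. The level of Cela1 thus goes against an acinar label in these livers, and Cela1 is described apart from the other acinar members. Signals of different genes come from different probe sets and are not compared as amounts of RNA.

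Exactly 2 of the 242 arrays were high in acinar transcripts. The rule asked for at least 6 of the 7 measured acinar members (Pnliprp2, Cela1, Cela2a, Cpa1, Cpb1, Ctrb1 and Clps) to be at least 4-fold above the median of the control arrays of the same run and vehicle. Both arrays had 6, all but Cela1; 15 of the other arrays had 1, none had 2 to 5, and 225 had 0. The arrays were replicate 4 of 4-nitroanthranilic acid and replicate 4 of iodoform, both treated livers, and no control array was among them.

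**Figure D1:**
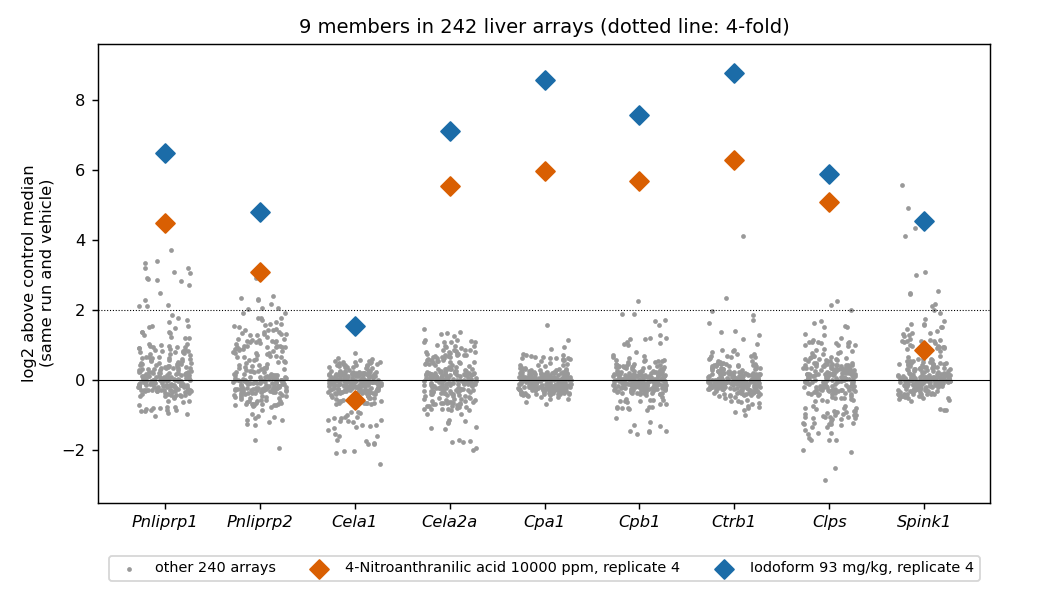
Log2 signal of each of the 9 measured members above the median of the control arrays of the same run and vehicle, 1 point per array; diamonds are replicate 4 of iodoform (blue) and of 4-nitroanthranilic acid (orange), grey points the other 240 arrays, and the dotted line is 4-fold. For Pnliprp1, Pnliprp2, Cela2a, Cpa1, Cpb1, Ctrb1 and Clps both diamonds lie above every grey point, while for Cela1 and Spink1 the orange diamond lies among them.

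In the iodoform array every measured member was above control, by differing amounts; the sizes depend on signals near the floor in the control arrays. Ctrb1, which encodes chymotrypsinogen, had a signal of 17184 there, against 6.08, 13.6 and 26.1 in the other 3 iodoform livers, and was 8.77 above control on the log2 scale. Cpa1, which encodes procarboxypeptidase A1, had 10163 against 2.86, 10.5 and 15.5 (8.57 above control). Cpb1, its B1 relative, had 6794 against 2.46, 3.48 and 10.4 (7.56 above). So each of these genes was near the floor in 3 livers of the group and among bright genes in the fourth. Cela2a had 13789 against 143, 196 and 257 (7.12 above), and Clps had 4723 against 52.8, 65.9 and 158 (5.90 above). Among the lipase relatives the signal was 3586 for Pnliprp1 against 2.84, 8.34 and 14.1 (6.50 above) and was 599 for Pnliprp2 against 3.55, 30.4 and 56.2 (4.80 above). Cela1 had 14984 against 2563, 2735 and 3293; at 1.53 above control it was short of 4-fold, from a level already high in the other livers.

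The 4-nitroanthranilic acid array showed the same members at smaller excesses. Ctrb1 had a signal of 2213 against 3.81, 8.27 and 18.7 in the other 3 livers of the group (6.28 above control), Cpa1 had 1486 against 5.54, 7.96 and 12.0 (5.97 above) and Cpb1 had 1254 against 2.67, 4.29 and 8.67 (5.69 above). Cela2a had 2549.7 against 71.2, 120.5 and 126 (5.53 above), Clps had 894 against 5.19, 18.6 and 19.1 (5.07 above), Pnliprp1 had 571 against 3.86, 11.4 and 12.1 (4.50 above) and Pnliprp2 had 270.1 against 4.69, 7.70 and 28.5 (3.09 above). Cela1, at 2922, was below the median of its controls by 0.58, although it was the highest of its group, whose others were at 1226, 1715 and 1882. The separate probe sets of Clps and Pnliprp2 gave 953 and 175 in this array and 5770.2 and 894 in the iodoform array, above the highest of the other 240 arrays (75.9 and 83.2).

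Among the other arrays the next highest values were well below the iodoform array for every acinar member, and below both arrays for all but Cela1. The next Cpa1 value was 80.4, in a chow control liver (FCO1 replicate 1), and the next Cpb1 value was 99.7, in a liver given 800 ppm propylene glycol mono-t-butyl ether. For Ctrb1 it was 458, in replicate 1 of 300 ppm propylene glycol mono-t-butyl ether, 4.11 above control on the log2 scale, where the other acinar members were not 4-fold high.

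Genes of acinar cells that the rule did not use were high in the same arrays. Of 32 listed genes, 20 were measured; 12 were at least 4-fold above the control median in the 4-nitroanthranilic acid array and 13 in the iodoform array. The summed signal of the 20 was 9854 and 52566 in those arrays, against 807 to 2754 in the other 240. Carboxyl ester lipase, Cel, had 1105 and 7070.2 against at most 263 elsewhere; the trypsinogen gene Prss2 had 1367 and 10792 against at most 663; the granule lectin gene Zg16 had 1447 and 8626 against at most 274; and the chymotrypsin-like Ctrl had 1253 and 7271 against at most 172. The elastase gene Cela3b had 849 and 4623 against at most 302. Klk1, a kallikrein gene and the brightest of the list in liver, was not 4-fold high in either array. The acinar transcription factor genes were not among the shared ones: Ptf1a was 0.67 and 0.34 above control and Rbpjl 0.67 and 0.03, and Bhlha15 was 2.08 above in the 4-nitroanthranilic acid array and 0.64 below in the iodoform array.

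Counting all 18193 genes, 220 were at least 4-fold above control in the 4-nitroanthranilic acid array and 59 in the iodoform array, against 1 to 556 in the other arrays (median 20). The 2 arrays shared 21 such genes, of which 7 were members and 11 were on the other acinar list. The remaining 3 were Adipoq, an adipocyte hormone gene, Dmbt1, a mucosal scavenger receptor gene, and Serpina7, which encodes thyroxine-binding globulin; each was higher in at least 1 other array than in either of these.

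Markers of neighbouring tissues were set beside these values. None of 11 measured islet genes was 4-fold high in either array, and their summed signal, 538 and 396, was within that of the other arrays (148 to 903). Insulin (Ins2) was at 20.2 and 28.4 and glucagon (Gcg) at 9.33 and 28.4. None of 6 measured duct genes was 4-fold high (summed signal 605 and 401, others 163 to 1654). Of 5 measured white fat genes 1 was, Adipoq, at 266 and 200.1 (summed signal 1707 and 990, others 211 to 4205). Of 8 stomach genes Tff2 was 4-fold high in the iodoform array alone (summed signal 1771 and 1818, others 582 to 2363), and none of 9 small intestine genes (4308 and 4831, others 1646 to 8111) or 4 lymphoid genes (228 and 212, others 72.9 to 742) was in either. Against the other livers of the same group, the sums in the 4-nitroanthranilic acid array were higher for islet (148 to 391.9 in the others), duct (286 to 529), white fat (495 to 680) and stomach genes (582 to 1185). They were also higher for lymphoid genes (191 to 212) and within the others for small intestine genes (4088 to 4459). In the iodoform array they were higher for white fat (635 to 679) and stomach genes (839 to 1108) and within the others for islet (216 to 413) and duct genes (310 to 492). There they were also within the others for lymphoid genes (211.6 to 279.9) and below them for small intestine genes (5089 to 6893). The summed signal of 7 hepatocyte genes, 437520 and 407898, was within the range of the other arrays (281568 to 737366). RNA integrity numbers were 6.5 in the 4-nitroanthranilic acid array against 6.9 to 7.4 in the others of its group, and 8.7 in the iodoform array against 8.8 and 8.9. The part of adjacent pancreas or other tissue in these values was not tested.

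In these 2 groups the differences of Cpa1, Cpb1, Ctrb1 and Pnliprp1 rested on those arrays, and that of Cela2a in part. Those of Spink1 with iodoform and of Cela1 with 4-nitroanthranilic acid did not (4.43 and -1.51 without the arrays). With 4-nitroanthranilic acid, Cela2a was the member called, among 0.0605% of all genes called higher in that comparison: its signals in the control set were 33.6, 36.2, 40.3 and 40.9, and the fitted difference was 2.23 ± 0.50 (log2, SE; n = 4 against 4), or 4.71-fold. Without replicate 4 the difference was 1.23 ± 0.38 and was not called, while the 3 remaining livers stayed above the control set; it was also not called without any 1 of the 4 control arrays. Nor was it called under quantile normalization, with either other pseudocount, without the run code block or in a fit of only the groups compared. Cpa1, Cpb1 and Ctrb1 had differences of 1.56, 1.31 and 1.49 with replicate 4 and of 0.14, -0.11 and -0.07 without it. With iodoform, Cela2a went from 2.49 to 0.98, Ctrb1 from 1.52 to -0.75 and Pnliprp1 from 0.98 to -0.81 when replicate 4 was left out. Replicate 4 was also the only 4-nitroanthranilic acid liver of its run code, so within the other code the Cela2a difference was 1.16 (3 against 3). In this comparison Cdx1, an intestinal transcription factor gene, was also called higher (0.87 ± 0.17, adjusted p = 0.0162, limma), as the only 1 of 9 small intestine genes.

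Over all 46 treated groups the 9 measured members had 15 calls in 414 tests (3.62%), 9 higher and 6 lower, in 13 groups. Over all genes 0.749% of tests were called, 0.328% higher and 0.421% lower. The members were picked with such values known, so the counts are read no further. Pnliprp1 accounted for 4 of the calls, Cela1 for 6, Cpb1 for 2, and Cela2a, Ctrb1 and Spink1 for 1 each; Pnliprp2, Cpa1 and Clps had none.

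Pnliprp1, a lipase relative, was called higher in 4 groups, and no acinar member was called higher in any of them. Single arrays of these groups were still at least 4-fold high in an acinar member. Clps was so in 1 malathion liver (2.27 above control on the log2 scale). At 800 ppm propylene glycol mono-t-butyl ether Pnliprp2 and Cpb1 were so in 1 array each. Pnliprp1 was at least 4-fold above control in 19 arrays. Of these, 5 were the malathion livers, 4 were given 1200 ppm and 3 were given 800 ppm propylene glycol mono-t-butyl ether, 3 were given 1,4-dichlorobenzene, 1 was given 1-amino-2,4-dibromoanthraquinone, 2 were the arrays high in acinar transcripts and 1 was an air control (ACO1).

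In the malathion livers the Pnliprp1 signal was 153, 199, 206, 247 and 324, against 5.29, 7.72, 9.74 and 10.0 in the control set FCO2. The groups did not overlap, and the lowest treated liver was far above the highest control. The fitted difference was 3.04 ± 0.45 (log2, SE; 8.22-fold; n = 5 against 4) in a comparison where 2.33% of genes were called higher, and the plain differences within the 2 run codes were 3.18 and 3.14. The controls lie near the floor, so the size depends on the pseudocount: the difference was 1.79 with it 4 times higher and 3.93 with it 4 times lower, and was called with either. In the same livers Cpa1, Cpb1, Ctrb1 and Pnliprp2 differed from control by -0.21 ± 0.53, -0.14 ± 0.55, -0.05 ± 0.58 and -0.31 ± 0.55. Cela2a was at 0.56 ± 0.48 and Clps at 0.50 ± 0.61, neither of them called, although the Cela2a signals did not overlap those of the controls. RNA integrity numbers were 4.7 to 6.5 in the malathion livers and 6.7 to 7.2 in the control set, a difference whose part in this result was not tested.

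Propylene glycol mono-t-butyl ether gave a step between 300 and 800 ppm. The control livers had Pnliprp1 signals of 5.74, 7.87, 8.07, 8.32 and 10.7; the signals were 5.91 to 22.3 at 25 ppm, 5.92 to 23.7 at 75 ppm and 6.99 to 25.2 at 300 ppm, all overlapping the controls. At 800 ppm the 5 livers had 63.7, 70.4, 182, 185 and 241, and at 1200 ppm the 4 livers had 140.3, 193, 239 and 277. Both groups lay above every liver at the lower doses. The differences from control were 2.56 ± 0.36 at 800 ppm (5.88-fold) and 3.14 ± 0.38 at 1200 ppm (8.80-fold), with 0.033% and 0.121% of all genes called higher. The linear trend over the ranked doses was 3.25 ± 0.32 from control to the highest dose, with 0.203% of genes called higher. With the pseudocount 4 times higher or lower the difference was 1.41 or 3.44 at 800 ppm, 1.84 or 4.09 at 1200 ppm and 1.88 or 4.24 for the trend, each of them called. At 300 ppm the Pnliprp1 difference was 0.30 ± 0.38. No other member was called at 800 or 1200 ppm.

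With 1,4-dichlorobenzene the Pnliprp1 signal spread rather than stepped. The control livers had 6.58, 8.10, 8.26, 9.80 and 29.9; at 500 mg/kg the livers had 4.69, 23.4, 72.6 and 100.1 and at 600 mg/kg 17.2, 26.1, 117 and 186. Both groups overlapped the controls. The livers at 4.69 and 23.4 (500 mg/kg) and at 17.2 and 26.1 (600 mg/kg) lay under the highest control. The difference at 600 mg/kg was 1.47 ± 0.38 (2.77-fold) and was called, with 0.528% of genes called higher, but it was not called without replicate 3 or 4 of that group or without replicate 1, 2, 3 or 5 of the control set. It was also not called with values as deposited, with the pseudocount 4 times lower (2.03) or in a fit of only the groups compared, and was 0.79 with the pseudocount 4 times higher; at 500 mg/kg it was 0.94 ± 0.38. The trend was 1.51 ± 0.33 (0.80 or 2.09 with the pseudocount 4 times higher or lower, both called), with 0.797% of genes called higher.

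**Figure D2:**
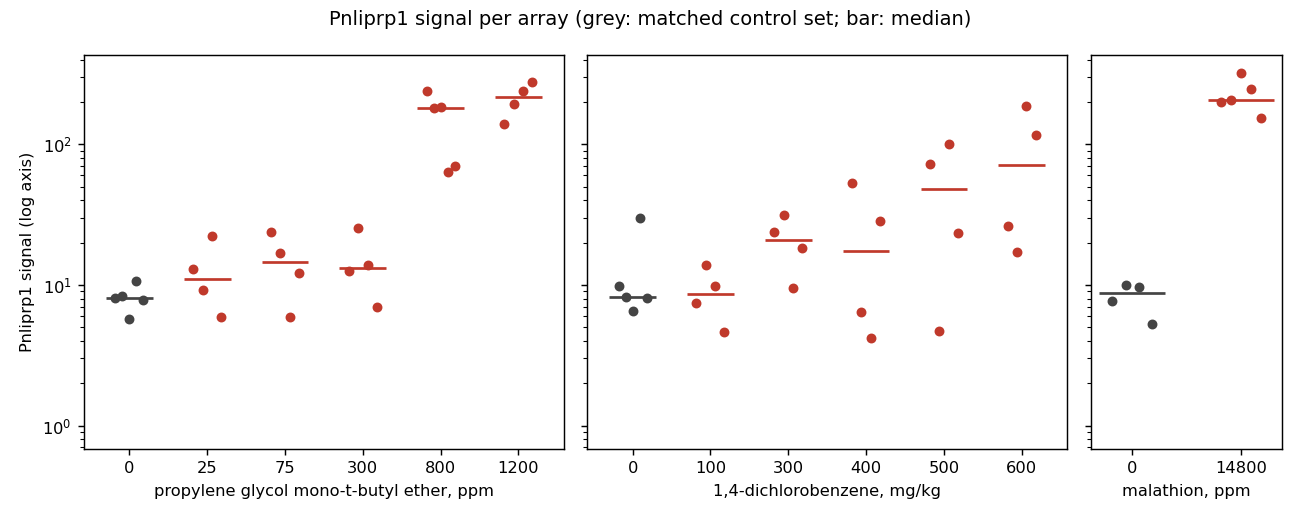
Pnliprp1 signal (log axis) per array in the dose series of 1,4-dichlorobenzene and of propylene glycol mono-t-butyl ether and in the malathion group, with the matched control set in grey and the median as a bar. The step between 300 and 800 ppm, the spread at 500 and 600 mg/kg (4.69 to 186) and the separation of the malathion livers (153 to 324) from their controls are visible.

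Ordered by the group mean above the control median of the same run and vehicle, malathion came first (3.18 ± 0.37, SD, n = 5), then the 1200 ppm (3.00 ± 0.39, n = 4) and 800 ppm (2.42 ± 0.77, n = 5) groups of propylene glycol mono-t-butyl ether, then 600 mg/kg 1,4-dichlorobenzene (1.55 ± 1.24, n = 4). The first 3 neighbours differed by less than their spread, and the fourth overlapped the third. Iodoform and 4-nitroanthranilic acid came next (1.14 ± 3.59 and 1.13 ± 2.26, n = 4 each) through 1 array each. The lowest group was benzene at 100 mg/kg (-0.74 ± 0.16, n = 4).

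**Figure D3:**
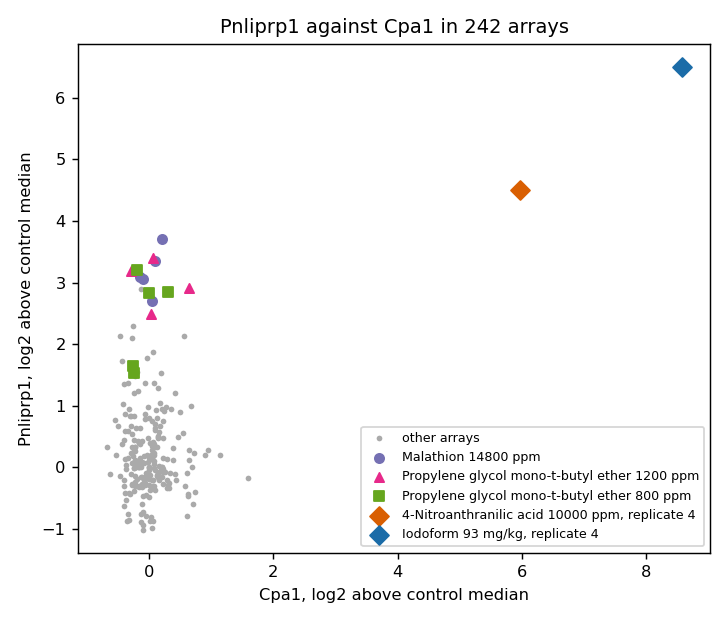
Pnliprp1 against Cpa1, both as log2 signal above the control median of the same run and vehicle, 1 point per array (242). The malathion and propylene glycol mono-t-butyl ether livers rise along the Pnliprp1 axis with Cpa1 near 0, whereas the 2 diamonds (Cpa1 at 5.97 and 8.57) lie high on both axes.

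The genes whose values moved most like Pnliprp1 depended on the 2 high arrays. Over the 242 arrays, with each value taken relative to the control mean of its run and vehicle, the 5 highest Pearson correlations were with 1700067K01Rik (0.52), Ctrl (0.45), Ctrb1 (0.44), Cyp2c55 (0.44) and Cpb1 (0.42). Over the 240 arrays without those 2, Ctrl, Ctrb1 and Cpb1 were at 0.20, 0.12 and 0.11, while 1700067K01Rik (0.58) and Cyp2c55, a cytochrome P450 gene (0.55), were the highest of all genes, followed by Fam171a1 (0.47), Ces2a, a carboxylesterase gene (0.47), and Sult1e1, the estrogen sulfotransferase gene (0.45). Pnlip had been meant for the same listing and could not be used, so Cpa1 was taken in its place after the data were seen: its 5 highest over 242 arrays were Ctrb1 (0.73), Cpb1 (0.70), Cela2a (0.65), Ctrl (0.63) and Cel (0.59), all of which were between 0.08 and 0.13 over the 240. The points share arrays, runs and treatments, and the correlations are descriptions.

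Spink1, the trypsin inhibitor, was high in all 4 iodoform livers, whether or not the acinar enzymes were. Its signals there were 663, 784, 893 and 1166, against 4.30, 4.80, 52.0 and 59.6 in the control set CCO4. The array high in acinar transcripts, at 893, was neither the highest nor the lowest of the 4, and no treated liver overlapped a control. The difference was 4.45 ± 0.50 (log2, SE; 21.9-fold; n = 4 against 4) with all arrays and 4.43 ± 0.55 without the 2 arrays, in a comparison where 0.0605% of genes were called higher. With the pseudocount 4 times higher or lower it was 3.27 or 5.22, called with either. In the 4-nitroanthranilic acid array that was high in acinar transcripts Spink1 had a signal of 32.9, 0.85 above control, with 47 arrays above it.

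Other livers with high Spink1 were scattered. Of the 12 arrays at least 4-fold above control, 4 were given iodoform, 3 coumarin, 2 malathion and 1 each 1,2-dibromoethane, 1,5-naphthalenediamine and 300 ppm propylene glycol mono-t-butyl ether, and none was a control. The coumarin livers had 16.2, 87.5, 115 and 189, all above the control set CCO2 (5.13 to 15.2), with a difference of 1.96 ± 0.66 that was not called. Among the livers given 1,2-dibromoethane 1 had 1136 and the others 3.39, 12.2 and 46.4; the difference, 1.90 ± 0.68, was not called. The malathion livers had 12.1, 58.9, 76.3, 144 and 203 and overlapped their controls, of which 1 was at 62.5.

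**Figure D4:**
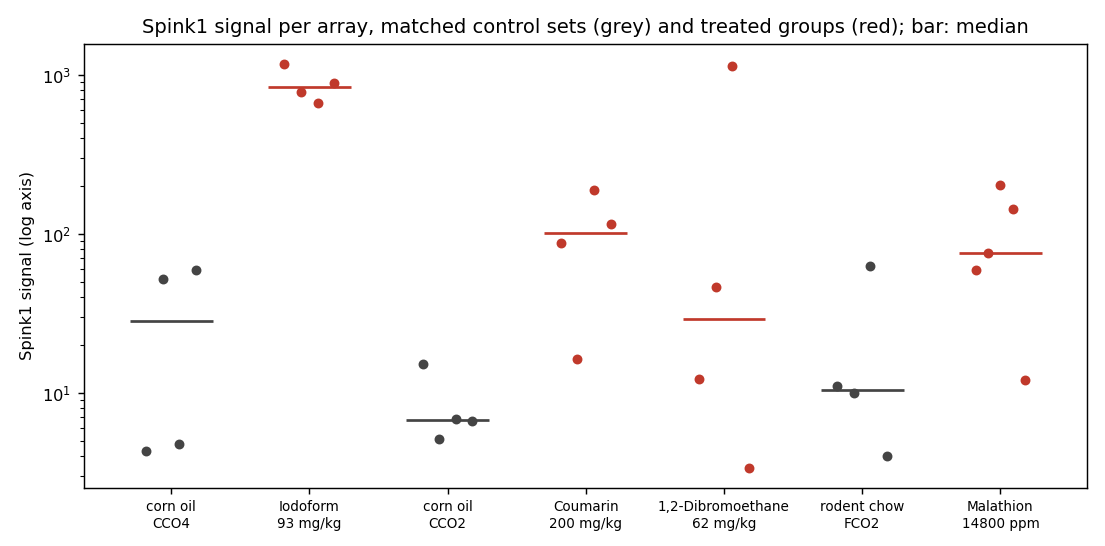
Spink1 signal (log axis) per array in 4 treated groups (red) and their matched control sets (grey), with the median as a bar; coumarin and 1,2-dibromoethane share the control set CCO2. The 4 iodoform livers lie between 663 and 1166, 1 of the 4 given 1,2-dibromoethane reaches 1136, and the coumarin livers lie above their controls.

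By group mean above control, iodoform was first for Spink1 (4.48 ± 0.34, SD, n = 4), followed by coumarin (2.04 ± 1.12, n = 4), 1,2-dibromoethane (1.77 ± 2.63, n = 4) and malathion (1.76 ± 1.12, n = 5), which did not differ from one another beyond their spread. The genes most like Spink1 over 242 arrays were S100g (0.66), a calcium-binding protein gene, Slpi (0.51), a protease inhibitor gene, Mfge8 (0.47), Anxa2 (0.43) and Tnfaip3 (0.43), and the same 5 were the highest over the 240 arrays (0.62, 0.49, 0.47, 0.43 and 0.43). No acinar gene was among them. Of 12 acute phase genes, listed because Spink1 is known to rise with them elsewhere, none was called with iodoform (median log2 difference 0.18, all genes -0.03), and with malathion Orm2 was called higher (3.01 ± 0.84, adjusted p = 0.0251, limma).

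Cela1, the elastase abundant in liver, was lower in 6 groups and called higher in none. With 1,5-naphthalenediamine its signals were 670.1, 1062 and 1224 against 3497, 3624 and 4959, with a difference of -2.04 ± 0.29 (4.10-fold lower; n = 3 against 3; 2.18% of genes called lower). With 2,3-benzofuran they were 927, 1205 and 1305 against 3561, 3960 and 4376 (-1.79 ± 0.29; 3.45-fold lower; n = 3 against 3; 1.93% called lower). With malathion they were 1067, 1215, 1429, 1611 and 1775 against 3994, 4169, 4569 and 4666 (-1.57 ± 0.34; 2.96-fold lower; 2.02% called lower). In each of these 3 groups every treated liver was under every matched control. The value of 670.1 is from an array that had to be rescaled. The plain malathion differences within the 2 run codes were -1.69 and -1.46.

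The decrease was smaller in the inhalation and 1,4-dichlorobenzene groups. At 500 mg/kg 1,4-dichlorobenzene the Cela1 signals were 1785, 2513, 2642 and 2682, and at 600 mg/kg 1635, 1869, 3101 and 3104, against 3933 to 6749 in the 5 controls. These were 1.96-fold and 1.99-fold lower (SE 0.17 on the log2 scale for each), with 0.242% and 0.165% of genes called lower. The lower doses had 4535 to 5362 at 100 mg/kg, 2862 to 4880 at 300 mg/kg and 3127 to 4011 at 400 mg/kg, and the trend was -1.20 ± 0.15 with 0.308% called lower. At 4000 ppm methylene chloride the signals were 2900, 4161, 4219 and 4721 against 5267 to 6951, a difference of -0.60 ± 0.17 (1.52-fold lower; 1.75% called lower) that was not called without replicate 2 of the treated group or replicate 2 of the control set. The 4-nitroanthranilic acid livers were also all below their controls, at -1.23 ± 0.35, but were not called. The benzofuran and methylene chloride calls were lost with values as deposited, the methylene chloride call also with control sets pooled, and those of 1,5-naphthalenediamine, both 1,4-dichlorobenzene doses and methylene chloride in fits of only the groups compared. With values as deposited the 1,5-naphthalenediamine difference was -2.86. Other listed genes were called beside Cela1 in these groups. With malathion Orm2 was at 3.01 (limma, adjusted p = 0.0251), and the RNA integrity numbers were 4.7 to 6.5 against 6.7 to 7.2 in the controls. With 1,5-naphthalenediamine the fat gene Retn was at -2.26 (limma, adjusted p = 0.0405) and the stomach gene Tff1 at -1.10 (adjusted p = 0.00399). With 2,3-benzofuran Saa3 was at -1.32 (limma, adjusted p = 0.00788) and Hp at -0.62 (adjusted p = 0.00917), with Tff1 at -0.87 (adjusted p = 0.0135) and the intestinal gene Fabp2 at -0.74 (adjusted p = 0.0425). With 1,4-dichlorobenzene Orm3 was at 1.14 at 500 mg/kg (limma, adjusted p = 0.0443) and at 1.31 at 600 mg/kg (adjusted p = 0.0166), and Orm2 at 1.24 at 500 mg/kg (adjusted p = 0.0203). With 4000 ppm methylene chloride Orm3 was at -2.22 (limma, adjusted p = 2.04e-07) and Saa1 at -1.95 (adjusted p = 0.0449). In the 1,4-dichlorobenzene trend Orm2 was at 1.26 (limma, adjusted p = 0.00187) and Orm3 at 1.52 (adjusted p = 7.59e-05). Their part in the Cela1 values was not tested.

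**Figure D5:**
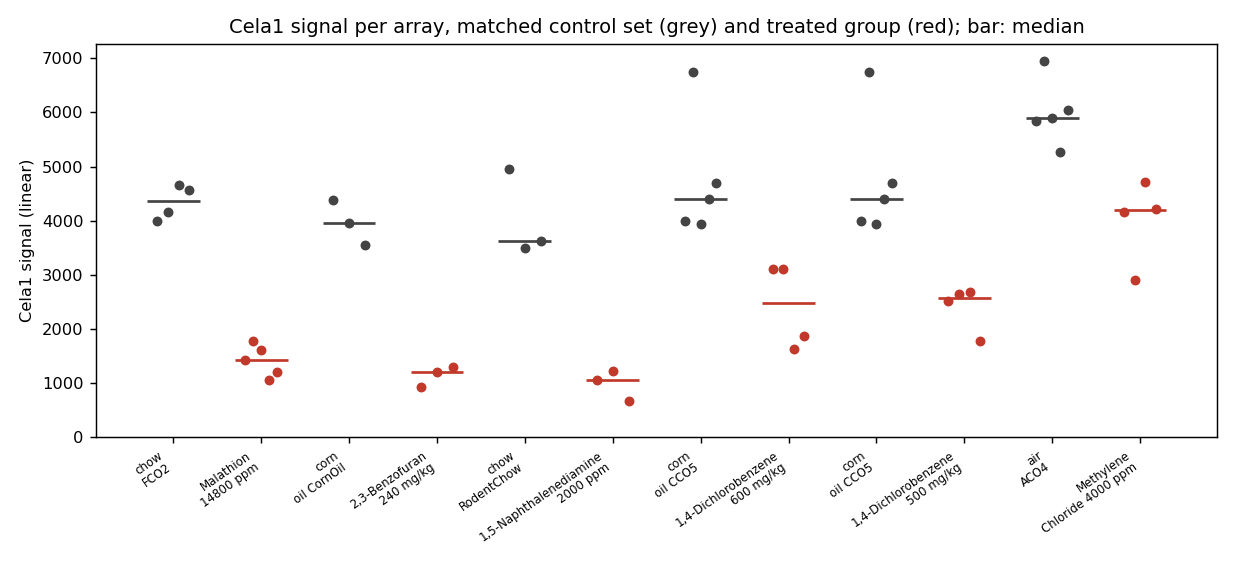
Cela1 signal (linear axis from 0) per array in the 6 treated groups called lower (red), each to the right of its matched control set (grey; CCO5 is drawn for both 1,4-dichlorobenzene doses), with the median as a bar. No treated liver reaches the lowest matched control in any of the 6 pairs.

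The genes most like Cela1, listed after the data were seen, were not acinar: Slco1a1 (0.71), an organic anion transporter gene of hepatocytes, Cyp4f14 (0.68), Hsd3b5 (0.65), Sdr9c7 (0.63) and Lifr (0.62) over 242 arrays, and the same 5 over the 240 (0.71, 0.69, 0.67, 0.65 and 0.63). Cela1 correlated with Pnliprp1 at -0.05 and with Spink1 at -0.20 over all 242.

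The calls of Cpb1, Ctrb1 and Pnliprp2 rested on signals near the floor. Cpb1 had 6.08, 33.9, 39.5 and 56.2 with 0.5 ppm naphthalene against 5.86 to 9.55 (0.94 ± 0.27; 0.863% of genes called higher), and 15.1, 37.9, 43.0 and 63.1 with 3000 ppm methylene chloride against 4.52 to 15.3 (1.09 ± 0.27; 1.51% called higher); both groups overlapped their controls. Beside the first, 2 of 7 hepatocyte genes were called higher, Alb (0.67, limma, adjusted p = 0.00903) and Ttr (0.61, adjusted p = 0.0110), with a list median of 0.53 (all genes -0.06), and the stomach gene Tff1 was called lower (-0.77, adjusted p = 0.00595); their part in the Cpb1 value was not tested. The first was not called with values as deposited, with the pseudocount 4 times higher or in a fit of only the groups compared, and the second under the last 2 of these. The first was not called without replicate 2 or 3 of the treated group, nor the second without replicate 4 of the treated group. Beside the second, the acute phase genes Orm3 and Saa1 were at -2.50 (limma, adjusted p = 1.17e-08) and -2.22 (adjusted p = 0.0166), and Fabp2 at -0.98 (adjusted p = 0.000984). Ctrb1 at 300 ppm propylene glycol mono-t-butyl ether had 10.7, 11.2, 81.9 and 458 against 6.58 to 12.4 (1.57 ± 0.32; 0.203% called higher). Beside it, 2 of 6 duct genes were called higher, Muc1 (1.46 ± 0.31, adjusted p = 0.0193, limma) and Sox9 (1.11 ± 0.28, adjusted p = 0.0463, limma), and the list medians were 1.14 for duct, 0.65 for white fat, 0.50 for stomach and 0.47 for islet genes (all genes 0.08). Their part in the Ctrb1 value was not tested. The Ctrb1 difference was 0.71 and not called without replicate 1, which had 458, and was not called without replicate 2 of that group or replicate 4 of its control set, nor in a fit of only the groups compared. In the methylene chloride trend Pnliprp2 was 1.25 ± 0.42 and Cpb1 0.70 ± 0.23, with 1.42% of genes called higher, and the separate Pnliprp2 probe set gave 0.31 ± 0.28. Leaving out 1 array at a time ended the Pnliprp2 trend call in 16 of 25 refits and the Cpb1 one in 12. Neither was called with values as deposited, under quantile normalization or with the pseudocount 4 times higher. Beside these, 1 of 11 islet genes, Chgb, was higher in that trend (1.26 ± 0.35, adjusted p = 0.0113, limma). The separate Pnliprp2 probe set was called higher at 500 mg/kg 1,4-dichlorobenzene (1.27 ± 0.33), where the main one was at 0.58 ± 0.48 and not called.

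The other acinar genes, which the choice of members did not use, had 3 calls in 920 tests over the 46 treated groups (0.326%), beside 0.749% over all genes. Ctrl was higher at 4000 ppm methylene chloride (1.20 ± 0.35, adjusted p = 0.0287, limma; 4 against 5, with no overlap). Ptf1a, the acinar lineage transcription factor gene, was lower with malathion (-1.24 ± 0.37, adjusted p = 0.0417, limma; 5 of 5 livers below the control mean), and Bhlha15, a secretory cell transcription factor gene, was lower with 1,5-naphthalenediamine (-1.73 ± 0.45, adjusted p = 0.0463, limma; 3 of 3). The Ptf1a call was lost on leaving out any of 8 of the 9 arrays, the Bhlha15 call on leaving out any of the 6, and the Ctrl call on leaving out 4 of the 9. Ptf1a was not called with the pseudocount 4 times higher or without the run code block, Bhlha15 under quantile normalization, with the pseudocount 4 times lower or in a fit of only the groups compared, and Ctrl with values as deposited, under quantile normalization or in such a fit. In the groups where Pnliprp1 was called higher and no acinar member was, the median log2 difference of the 20 genes was -0.03 with malathion (all genes -0.03). It was 0.34 at 800 ppm (0.05) and 0.19 at 1200 ppm propylene glycol mono-t-butyl ether (0.02), and -0.05 at 600 mg/kg 1,4-dichlorobenzene (-0.03). No gene of the list was called higher in these groups. With iodoform and 4-nitroanthranilic acid the medians were 0.67 and 0.59, and none was called. At 300 ppm propylene glycol mono-t-butyl ether, where Ctrb1 was called, the median was 0.69 (all genes 0.08), and none was called. With 1,5-naphthalenediamine, where Bhlha15 was called lower, the median was -0.72 (all genes -0.12). The medians of the neighbouring tissue lists in that group ran from -0.08 (lymphoid) to -0.70 (white fat). Replicate 2 of that group had been rescaled by 5.91. The part of these in the Bhlha15 value was not tested.

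In all 5 dose series together the members had 5 calls in 45 trend tests (11.1%), beside 1.1% over all genes. This share is read no further, since the members were picked with such values known. The other acinar genes had 1 call in 100, Ctrl with methylene chloride (1.10 ± 0.30, adjusted p = 0.0111, limma). Between control sets of the same vehicle and run, no member was called in 45 tests (limma; 3 had an unadjusted p under 0.05), beside 0.0407% of all genes. Between vehicles of the same run, no member was called in 54 tests (3 had an unadjusted p under 0.05), beside 4.89% of all genes. That share came almost wholly from 1 comparison: 5188 of the 5338 calls were in corn oil against air controls of run B. The comparison in run D had 150 and the others had 0 each. The 20 other acinar genes had 0 calls in 100 tests between control sets and in 120 between vehicles (3 and 8 with an unadjusted p under 0.05). At 3 to 5 livers a set, these counts do not show that the sets were alike.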

How the data were processed

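Probe set signals of 242 Affymetrix Mouse430_2 arrays were used as deposited by the authors: linear intensity values from 1 colour, made with GCOS 1.0 per the submitters' processing notes. In 240 arrays the trimmed mean was 500; 2 arrays (vanadium pentoxide replicate 4, 1,5-naphthalenediamine replicate 2) were not at it and were rescaled by 3.37 and 5.91. Values were log2(signal + 17.3), so folds of dim genes are understated. Of 45101 probe sets 34945 name 1 gene; the brightest on average stood for each of 18193 genes, with no filter on low signal in the main fit. Detection calls were not used here.

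limma 3.58.1 (R 4.3.3) was fitted per run with 1 mean per group, and in run A with the run code as a block; each treated group was set against its matched control set. The fit was tested on simulated data. Trends are linear over ranked doses. Array excesses use the median of control arrays of the same run and vehicle; a list count uses 4-fold.

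Named genes are the members, genes of the other acinar and acute phase lists called beside a member (those of other lists named here were chosen after their values were seen), up to 6 abundant other acinar genes, and the 5 genes most like Pnliprp1, Spink1 and 1 acinar enzyme member (Cpa1; Cela1 was added after its values were seen). The members, lists and tests were chosen with earlier results of these data known. Labels name separate mice; replicates were numbered in accession order. No 2 arrays held identical values, and the number of arrays limits the precision. Alternatives were the deposited scale, quantile normalization, a filter on dim genes, lower and higher pseudocounts, other probe sets, no block, pooled controls, and leaving out arrays.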

Additional observations from a re-analysis of the deposited data

Results flagged for a closer look

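Values far from the rest of their group of 4 or 5 livers were looked for. In 40 combinations of a member and a group described above, 14 were found. The combinations were a called member in its treated group and control set, and every member in the groups of the 2 arrays high in acinar transcripts. They were chosen by their values, so the count cannot be set against the chance rate of about 1 in 20 such groups. Of the 14, 12 lay in those 2 arrays, which were picked for high acinar members. In replicate 4 of iodoform the log2 signals were 13.87 for Cela1, 13.75 for Cela2a, 13.31 for Cpa1, 12.73 for Cpb1, 14.07 for Ctrb1 and 11.82 for Pnliprp1, each the highest of 4. In replicate 4 of 4-nitroanthranilic acid they were 11.33 for Cela2a, 9.83 for Clps, 10.55 for Cpa1, 10.31 for Cpb1, 11.12 for Ctrb1 and 9.20 for Pnliprp1, again each the highest of 4. The remaining values were Cela1 at 10.82 in replicate 4 of 500 mg/kg 1,4-dichlorobenzene, the lowest of 4, and Pnliprp1 at 5.56 in replicate 4 of the corn oil control set CCO5, the highest of 5. Spink1 in the iodoform array was not among them.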

How the results depend on the processing

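Of the 20 member calls (15 in treated groups and 5 in trends), 8 were kept under every alternative tried and on leaving out each array in turn: Pnliprp1 with malathion and with 800 and 1200 ppm propylene glycol mono-t-butyl ether, its trends with that chemical and with 1,4-dichlorobenzene, Spink1 with iodoform, and Cela1 with malathion and in the 1,4-dichlorobenzene trend. Not every alternative could change every one of these 8 calls. Pnliprp1, Spink1 and Cela1 have 1 probe set each, so the setting with other probe sets left their values as they were. The block exists in run A only, and the 2 arrays high in acinar transcripts lie in runs A and B. Those settings therefore left the calls of run D untouched and are not support for them. No direction reversed for any member or other acinar gene called. Fitting only the 2 groups compared left 6 of the 15 member calls and 1 of the 3 other acinar calls. The other acinar count was also 1 under quantile normalization, 8 with control sets pooled and 0 without dim genes (limma; 9 of 173 tests had an unadjusted p under 0.05). That filter left 3 members in run A, 4 in run B, 1 in run C and 2 in run D. It kept a gene whose highest group mean in the run was above the median of all values. Pnliprp1 and Spink1, near the floor in most livers, could pass it through the groups where they were high. Their calls being kept under this filter is therefore not support for them. The 5 trend calls became 3 with values as deposited, without dim genes or with the pseudocount 4 times higher. The filter on dim genes removed Cpb1, Ctrb1 and Pnliprp2 in run D, and the 3 called other acinar genes in their runs. Those calls were therefore not retested under it. Without the 2 arrays high in acinar transcripts, 1 member was called between vehicles, Pnliprp2 in corn oil against air controls of run B (-1.44). Those 2 arrays were found under 7 of the 9 alternatives; 1 array was found with the pseudocount 4 times higher and 0 when Cela1 also had to be 4-fold high. Leaving out 1 array at a time gave 14 to 16 member calls and 2 to 4 other acinar calls in treated groups, 0 to 1 between vehicles, 0 between control sets and 3 to 6 in trends. No paired analysis was possible because the labels give no replicate numbers shared between groups. Of the 9 measured members 6 lie near the floor of the arrays in most livers, where a change in level may not be measurable.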
